A study of Mus musculus with 2 samples.

Results

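Retinoic acid is a small, vitamin A-derived signal that patterns the embryonic face, eye and hindbrain. Cells make it from retinol in successive oxidations: Rdh10 oxidises retinol to retinaldehyde, Dhrs3 reduces retinaldehyde back to retinol, and retinaldehyde dehydrogenases such as Aldh1a2 and Aldh1a3 form retinoic acid, a reaction to which Aldh1b1 has also been linked. The cellular binding proteins Crabp1 and Crabp2 hold retinoic acid in the cytoplasm, where Crabp2 is known for delivery to nuclear receptors, and the cytochrome P450 enzymes Cyp26a1 and Cyp26b1 break it down. These 9 genes were followed here in single cells of the cranial neural crest (CNCCs) of the mouse. They were chosen with earlier results of these data known and selected by gene symbol. All 9 were found among the 32285 genes of the count matrices.

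GFP-positive cells were sorted from E11.5 heads after removal of tissue caudal to the second arch and otic vesicle. In both groups the Wnt1:CRE transgene, which is active in neural crest precursors and in the dorsal midbrain and hindbrain, had switched on GFP from 2 copies of the Rosa26 mTmG reporter. The control library came from 2 pooled embryos with 1 floxed and 1 wild-type allele of both Tfap2a and Tfap2b. The mutant library (Tfap2 neural crest knockout) came from 2 pooled embryos in which both genes carried 2 floxed alleles, so the CRE also acted on 1 allele of each gene in the controls. With 1 library per genotype no replicate error could be estimated. All intervals below are exact 95% intervals for counting error only, and no p-value was computed.

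A unique molecular identifier (UMI) marks 1 captured transcript. Levels are given as CPM, the UMIs of a gene divided by all UMIs of the same cells and scaled to 1000000; they are not scaled to length and are not compared between genes. The control library held 1259.9 CPM of Xist and no UMI of Ddx3y, and the mutant library held 0.0777 and 52.7 CPM, so the effect of genotype and that of sex cannot be told apart. The control and mutant libraries held 83542433 and 79206144 UMIs in 6148 and 6063 barcodes, of which 5625 and 5587 passed the filters and 5 passed with a sequence that both libraries share. The 3′ reads counted for Tfap2a and Tfap2b need not lie in the deleted part of either gene and so do not check the labels. In mesenchyme-like cells Tfap2a was at 19.4 and 13.7 CPM and Tfap2b at 56.4 and 47.2 in control and mutant. Markers defined 4 classes: mesenchyme-like cells (3716 control and 2731 mutant), neuron-like cells (653 and 1041), brain progenitor-like cells (790 and 1272) and glia-like cells (261 and 202). Mesenchyme-like cells made up 66.1% of the control cells and 48.9% of the mutant cells, so levels are compared within classes. The 9 genes took no part in clustering. Haemoglobin and the other blood markers summed to 23.8 CPM in control and 0.191 in mutant mesenchyme, to 84.2 and 0.124 in the frontonasal-like cluster described next, and to 286 and 0.842 in brain progenitor-like cells; their part in the results was not tested.

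Mesenchyme-like cells fell into 5 clusters. Cluster 0 was maxillary-like (945 control and 727 mutant cells, led by Lhx6 and Lhx8), cluster 1 frontonasal-like (948 and 496, Pax7 and Alx1) and cluster 3 mandibular-like (761 and 401, Hand2). Cluster 2 (682 and 714 cells) was led by Emx2 and Hoxa2 and cluster 4 (380 and 393) by Vtn and Zic1, and both stayed unnamed.

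In mesenchyme-like cells 7 of the 9 genes had at least 100 UMIs over both libraries. Of these 7, Crabp1 was lower in the mutant by more than 1.5-fold and Cyp26a1 was higher by more than 1.5-fold. Among all 12442 genes with that many UMIs, 1.07% were lower and 2.65% were higher by that rule, 3.72% in either direction. Because the 9 genes were chosen with earlier results of these data known, these shares are a background, not a test of the set. The median log2 ratio of the 7 was -0.07, against 0.02 for all genes tested.

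By cluster the counts differed. In the maxillary-like cluster 1 of 7 tested members was higher and 0 lower, against 0.996% and 0.754% of all genes (1.75% in either direction). In the frontonasal-like cluster 1 of 5 was lower and 0 higher, against 1.19% and 2.75% (3.93%). Cluster 2 held the most differences among the members, with 1 of 7 higher (Cyp26a1) and 2 lower (Aldh1a2 and Dhrs3), against 2.72% and 1.08% (3.79%). The Aldh1a2 call ended when the 10 cells of each library with the most Aldh1a2 UMIs were left out (log2 ratio -0.06, -0.94 to 0.80). The like step for Dhrs3 in cluster 2 and Cyp26a1 in the maxillary-like cluster left under 100 UMIs, so those calls ended too. Their log2 ratios were then -1.15 (-1.89 to -0.44) and 1.57 (0.92 to 2.25). In the mandibular-like cluster none of 6 differed by 1.5-fold in either direction in these 2 libraries, against 1.02% higher and 1.38% lower (2.40%). In cluster 4, 1 of 5 was lower and 0 higher, against 1.18% and 3.02% (4.20%).

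The sequences just upstream of these 2 genes are shown because they frame the contrast between a binding protein that was lower and a breakdown enzyme that was higher. Each line gives the 250 bases before the RefSeq transcription start in GRCm38.p6, 5′ to 3′ on the plus strand, at chr19:37697558-37697807 for Cyp26a1 and chr9:54764498-54764747 for Crabp1. Capitals mark matches to retinoic acid response elements, searched as direct repeats with 5, 2 or 1 bases between (each repeat unit being AGGTCA or the variant AGTTCA or the variant GGTTCA or the variant GGGTCA), and to the TFAP2 motif, searched as GCC and GGC with 3 or with 4 bases between, which can overlap each other. Both strands were searched.
Cyp26a1: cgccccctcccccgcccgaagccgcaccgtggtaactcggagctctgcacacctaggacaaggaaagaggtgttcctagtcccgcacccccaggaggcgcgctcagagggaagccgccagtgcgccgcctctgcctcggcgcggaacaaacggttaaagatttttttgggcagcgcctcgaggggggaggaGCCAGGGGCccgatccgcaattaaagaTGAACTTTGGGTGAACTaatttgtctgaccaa
Crabp1: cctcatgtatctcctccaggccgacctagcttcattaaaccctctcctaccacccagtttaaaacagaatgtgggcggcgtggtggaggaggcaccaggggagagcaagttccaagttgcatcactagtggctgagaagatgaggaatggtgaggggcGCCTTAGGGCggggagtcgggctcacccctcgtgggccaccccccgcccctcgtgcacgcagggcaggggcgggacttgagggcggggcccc
The last capital run of Cyp26a1, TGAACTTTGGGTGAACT, is a direct repeat with 5 bases between, read on the minus strand, 32 to 16 bases before the start. Such a repeat was present in 0.0883% of the 32851 windows of this length, and repeats with 2 and 1 bases between were in 0.174% and 0.164%. Counted by gene, as the members are below, the shares were 0.104%, 0.204% and 0.196% of 27025 genes. Of the 6 members with a promoter in the table, Cyp26a1 held the repeat with 5 bases between and none held the other 2 spacings. The TFAP2 motif with 3 bases between was found upstream of Cyp26a1, Aldh1a2 and Cyp26b1, in 13.7% of all windows and in 15.4% of all genes. The motif with 4 bases between was found upstream of Crabp1, Aldh1a2 and Cyp26b1 and in 12.3% of all windows. A match describes letters, not a bound site. Crabp2, Aldh1a3 and Rdh10 have no entry.

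**Figure D1:**
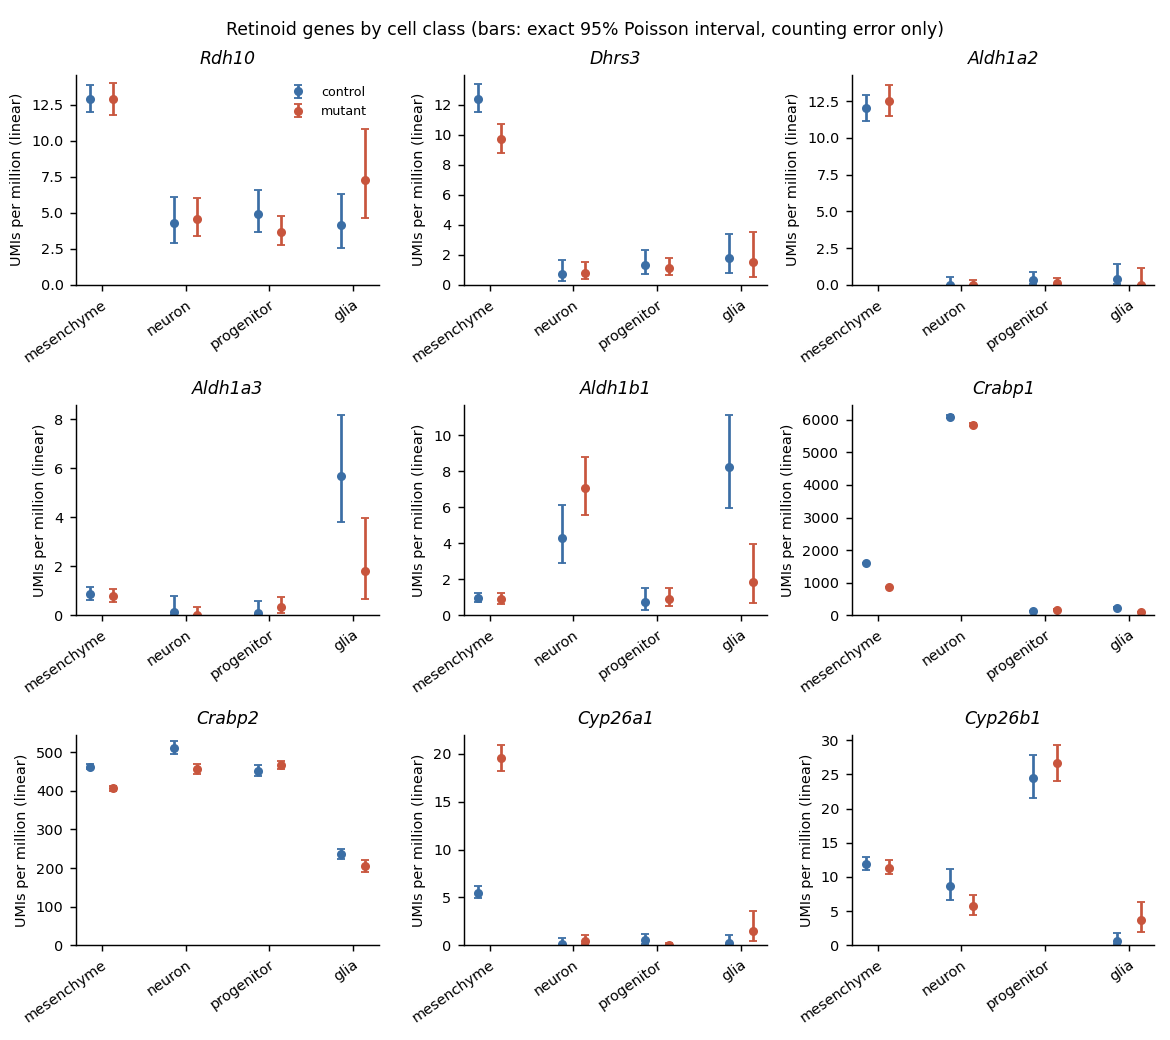
Level of each of the 9 genes (CPM, linear axis from 0) in the 4 classes of the control library (blue) and mutant library (red), with exact 95% Poisson intervals. Crabp1 was highest in neuron-like cells, at 6105.1 and 5854.5 CPM, while Aldh1a2, Dhrs3 and Cyp26a1 were highest in mesenchyme-like cells.

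Of the genes of synthesis, Rdh10 and Aldh1a2 were highest in mesenchyme-like cells, whereas Aldh1a3 and Aldh1b1 were higher in control glia-like cells. Rdh10 (chr1:16105774-16133734), which makes retinaldehyde, was at 12.9 CPM in mesenchyme-like cells of both libraries, from 738 control and 539 mutant UMIs, with a log2 ratio of -0.00 (-0.16 to 0.16). Its level was 2.61-fold (1.95 to 3.57) that of brain progenitor-like cells in the control and 3.49-fold (2.65 to 4.67) in the mutant. The levels of the neural and glial classes, between 3.69 and 7.28 CPM, had overlapping intervals.

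Rdh10 was unevenly spread over the face. The mandibular-like cluster was highest, at 27.4 CPM in the control and 26.9 in the mutant. Cluster 4 followed at 17.1 and 17.4. The frontonasal-like cluster was at 10.0 and 12.9, and the maxillary-like cluster and cluster 2 were lowest, between 7.88 and 8.11, with intervals that overlap. The mandibular-like level exceeded the lowest one 3.49-fold (2.83 to 4.30) in the control and 3.32-fold (2.52 to 4.40) in the mutant. Mandibular-like cells gave 40.8% of the mesenchymal Rdh10 UMIs of the control and 32.5% of those of the mutant, from 19.2% and 15.6% of all mesenchymal UMIs.

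Aldh1a2 (chr9:71215789-71296243), the main retinoic acid-forming enzyme of the early embryo, was at 12.01 CPM in control and 12.5 in mutant mesenchyme, from 687 and 523 UMIs, a log2 ratio of 0.06 (-0.11 to 0.22). A processed pseudogene, Gm48124, overlaps it on the other strand. Whether reads of both were kept apart is not known, because the sources used here do not say if counting used strand. Neuron-like cells held no Aldh1a2 UMI in either library. With the count of 0 set to 3, the mesenchymal level was 28.0-fold that of neuron-like cells in the control and 46.6-fold in the mutant. The lower ends of the exact intervals were 22.7 and 37.8. Brain progenitor-like cells held 3 and 2 UMIs, and glia-like cells 2 and 0.

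Within the mesenchyme Aldh1a2 was highest in the maxillary-like cluster, at 22.6 CPM in the control and 24.6 in the mutant, and lowest in the frontonasal-like cluster, at 2.60 and 3.34. The fold between these was 8.67 (6.27 to 12.3) in the control and 7.38 (4.98 to 11.4) in the mutant, and the order of the 5 clusters was the same in both libraries. Maxillary-like cells gave 55.9% and 63.3% of all mesenchymal Aldh1a2 UMIs. Cluster 4 came second, at 14.1 and 12.5 CPM, and the mandibular-like cluster after it, at 10.8 and 9.36.

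Cluster 2 was the place where the Aldh1a2 level differed, at 9.21 CPM in control and 5.36 in mutant, a log2 ratio of -0.78 (-1.31 to -0.26). That value rested on few cells. The 10 cells with the most UMIs held 71.3% of the control UMIs and 52.9% of the mutant ones, and the share of cells with a UMI, after thinning each cell to 5000 UMIs, was 2.22% and 2.43%. Without those 10 cells 25 control and 24 mutant UMIs remained, or 2.68 and 2.57 CPM, and no direction is read from the level.

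When the mesenchyme was divided into 9 finer clusters, 1 unnamed group of 153 control and 271 mutant cells was led by Cyp26a1, Shisa3, Ebf2 and Hmx1. There Aldh1a2 was at 48.5 CPM in control, the highest of the finer clusters, and at 10.3 in mutant. In the control 15 of 153 cells held all 79 UMIs, and in the mutant 14 of 271 cells held 28.

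Aldh1a3 (chr7:66390890-66427517) forms retinoic acid in the nasal and optic epithelium and was sparse in the sorted cells. Mesenchyme-like cells held 49 control and 32 mutant UMIs, 0.857 and 0.765 CPM, with the most in the frontonasal-like cluster, 22 and 10. Glia-like cells held 29 and 6 UMIs, or 5.70 and 1.82 CPM. The control glial level was 6.66-fold (4.06 to 10.8) the mesenchymal level, and the mutant one 2.38-fold (0.813 to 5.76). Neuron-like cells held 1 and 0 UMIs. The 5 epithelial markers, all detected in mesenchyme-like cells of both libraries, summed there to 8.08 and 9.06 CPM. In glia-like cells 4 of them were detected in control (2.16 CPM) and 3 in mutant (8.80 CPM), with Cldn6 at 0 in both and Cdh1 at 0 in the mutant. Their part in these values was not tested.

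Aldh1b1 (chr4:45799022-45804604), a mitochondrial aldehyde dehydrogenase, had another pattern. It was at 0.944 and 0.885 CPM in mesenchyme-like cells (54 and 37 UMIs) and at 4.29 and 7.07 in neuron-like cells (30 and 79 UMIs). The neuronal level was 4.55-fold (2.81 to 7.24) the mesenchymal one in the control and 7.99-fold (5.34 to 12.1) in the mutant. In neuron-like cells Aldh1b1 was higher in the mutant by 0.72 on the log2 scale (0.10 to 1.38). Glia-like cells held 42 control and 6 mutant UMIs, 8.26 and 1.82 CPM, a log2 ratio of -2.18 (-3.71 to -0.94).

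The neuronal difference in Aldh1b1 was seen chiefly in neural cluster 3, which was led by Cck and Tfap2d. There 7 control UMIs (3.60 CPM) stood against 34 mutant UMIs (11.1 CPM), a log2 ratio of 1.63 (0.43 to 3.05). In neural cluster 2 the counts were 10 and 25, or 4.30 and 6.48 CPM, a log2 ratio of 0.59 (-0.51 to 1.82). In neural cluster 4 the counts were 10 and 5. After thinning, the share of cells of neural cluster 3 with an Aldh1b1 UMI was 3.66% (1.49 to 7.41) in control and 5.24% (2.96 to 8.50) in mutant, intervals that overlap, and without thinning it was 3.55% and 9.73%.

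Dhrs3 (chr4:144892827-144928209), which lowers retinaldehyde, was at 12.4 CPM in control and 9.71 in mutant mesenchyme, from 709 and 406 UMIs. Its log2 ratio was -0.35 (-0.53 to -0.17), short of 1.5-fold. It was nearly absent from the neural classes, with 5 and 9 UMIs in neuron-like cells and 13 and 17 in brain progenitor-like cells. The mesenchymal level was 9.25-fold (5.37 to 17.5) that of brain progenitor-like cells in the control and 8.82-fold (5.44 to 15.3) in the mutant.

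Dhrs3 was highest in the frontonasal-like cluster of the control, at 16.5 CPM, and in cluster 4 of the mutant, at 14.1. In the frontonasal-like cluster it was 11.9 in the mutant, a log2 ratio of -0.47 (-0.82 to -0.13). The largest difference was in cluster 2, with 77 control and 41 mutant UMIs, 8.15 and 4.31 CPM, a log2 ratio of -0.92 (-1.50 to -0.35). The mandibular-like cluster stood at 11.6 and 11.51, and cluster 4 at 13.4 and 14.1. In the finer division Dhrs3 was highest in the Pax7- and Rnf128-led frontonasal-like group, at 26.1 and 24.9 CPM, and next in the Gata3- and Foxl2-led one, at 23.8 and 19.0.

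**Figure D2:**
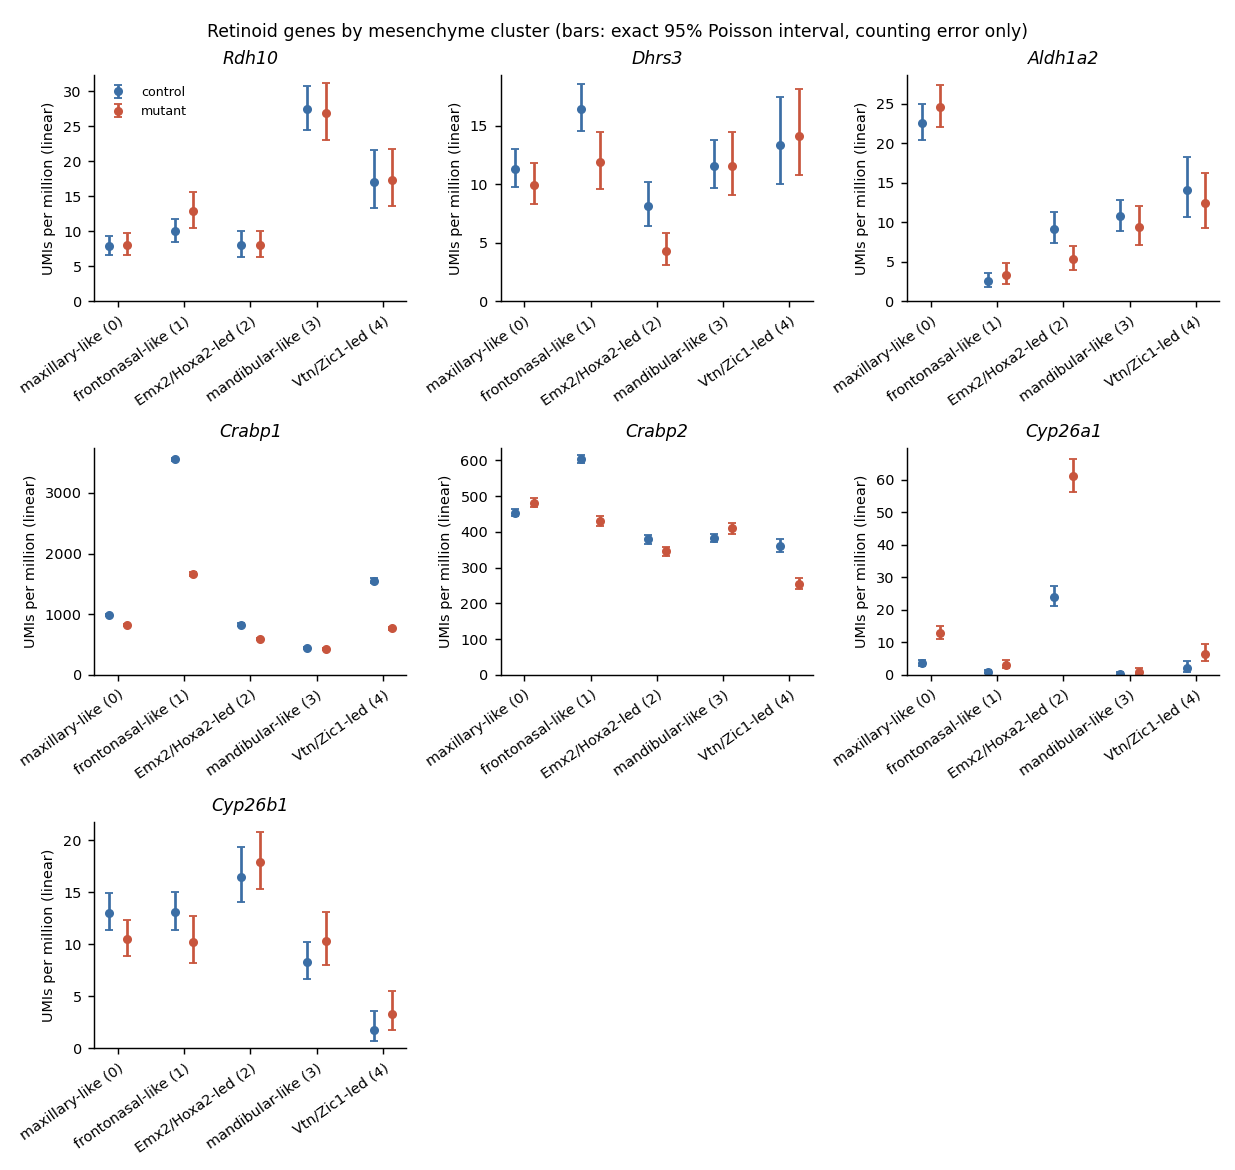
Level of the 7 genes with at least 100 mesenchymal UMIs (CPM, linear axes from 0) in the 5 mesenchyme clusters of the control (blue) and mutant (red) libraries, with exact 95% Poisson intervals. Rdh10 peaked in the mandibular-like cluster, Aldh1a2 in the maxillary-like cluster, Crabp1 in the frontonasal-like cluster and Cyp26a1 in cluster 2, in both libraries.

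Crabp1 (chr9:54764748-54773110) was the member with the most UMIs, 91764 in control and 36175 in mutant mesenchyme. Its level was 1604.1 CPM in control and 865 in mutant, a log2 ratio of -0.89 (-0.91 to -0.87), or 1.85-fold lower. When the mutant was given the cluster shares of the control library the log2 ratio was -0.78. Over all kept cells, where neuron-like cells were more frequent in the mutant, it was -0.27. Neuronal markers, which mark cells rich in Crabp1, summed to 33.3 CPM in control and 54.3 in mutant mesenchyme, the opposite direction to Crabp1. In cluster 4 the same markers summed to 34.0 and 82.2, and their part in the Crabp1 values was not tested.

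Each mesenchyme cluster had its own Crabp1 level and its own difference. The frontonasal-like cluster held 3551.4 CPM in control and 1664.8 in mutant, a log2 ratio of -1.09 (-1.12 to -1.07). Cluster 4 held 1551.6 and 769, a log2 ratio of -1.01 (-1.07 to -0.95). These were the 2 clusters past 1.5-fold.

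Smaller differences of the same sign were seen in cluster 2, at 830 and 589 CPM (log2 ratio -0.49, -0.54 to -0.44), and in the maxillary-like cluster, at 993 and 819 (-0.28, -0.31 to -0.24). The mandibular-like cluster was lowest and nearly equal, at 443 and 432 CPM, with a log2 ratio of -0.04 (-0.10 to 0.03). The frontonasal-like level thus exceeded the mandibular-like one 8.01-fold (7.78 to 8.25) in the control and 3.85-fold (3.70 to 4.01) in the mutant. Frontonasal-like cells gave 60.9% of the mesenchymal Crabp1 UMIs of the control and 37.2% of those of the mutant.

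Among the finer clusters the difference was largest in the frontonasal-like group led by Tfap2b and Crym, at 4215.5 CPM in control and 1406 in mutant (log2 ratio -1.58, -1.62 to -1.55). The Gata3- and Foxl2-led frontonasal-like group went from 1656.6 to 1139.4 (-0.54, -0.58 to -0.50). The Pax7- and Rnf128-led group went from 3241.3 to 2479.2 (-0.39, -0.43 to -0.34), and in the mutant it held the highest level of the finer clusters.

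The frontonasal difference was spread over cells. After thinning to 5000 UMIs per cell, the median frontonasal-like cell had 15 Crabp1 UMIs in control and 6 in mutant, and the 90th percentiles were 34 and 17. The share of these cells with more than 20 Crabp1 UMIs was 32.7% and 4.28%, and the share with none was 2.13% and 6.92%. In the mandibular-like cluster the median was 1 in both libraries.

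**Figure D3:**
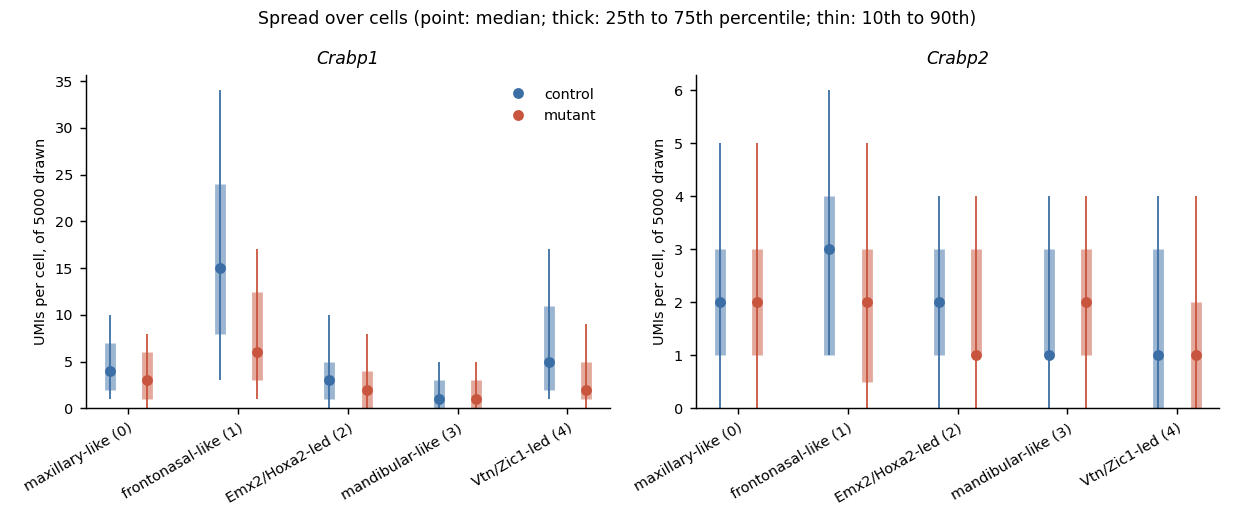
Spread of Crabp1 (left) and Crabp2 (right) over cells of the 5 mesenchyme clusters, as UMIs per cell after drawing 5000 UMIs from each cell (linear axes from 0). Points are medians, thick bars run from the 25th to the 75th percentile and thin bars from the 10th to the 90th. In the frontonasal-like cluster the Crabp1 median was 15 in control (blue) and 6 in mutant (red).

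Crabp2 (chr3:87948666-87953376) differed less between the libraries and between regions. Mesenchyme-like cells held 463 CPM in control and 407 in mutant, a log2 ratio of -0.19 (-0.21 to -0.16). The control clusters ranged from 361 in cluster 4 to 603 in the frontonasal-like cluster, a fold of 1.67 (1.58 to 1.77).

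The signs of the Crabp2 ratios were mixed. The frontonasal-like cluster went from 603 to 431 CPM (log2 ratio -0.49, -0.54 to -0.43) and cluster 4 from 361 to 255 (-0.50, -0.62 to -0.39). The maxillary-like cluster went from 454 to 482 (0.09, 0.04 to 0.14) and the mandibular-like cluster from 384 to 410 (0.10, 0.03 to 0.17). Cluster 2 was at 379 and 345 (-0.14, -0.20 to -0.07). The 2 clusters with the most negative Crabp2 ratios were the 2 in which Crabp1 was past 1.5-fold, but none of the 5 Crabp2 ratios passed 1.5-fold. Among the finer clusters the Tfap2b- and Crym-led group did, with 516 CPM in control and 311 in mutant (log2 ratio -0.73, -0.82 to -0.64). Crabp2 was measured in most cells, and 82.1% of control and 75.6% of mutant mesenchyme-like cells had a UMI after thinning.

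Cyp26a1 (chr19:37697798-37701536), the breakdown enzyme whose gene is a classical target of retinoic acid, was higher in the mutant. Mesenchyme-like cells held 315 control and 817 mutant UMIs, 5.51 and 19.5 CPM, a log2 ratio of 1.83 (1.64 to 2.02) or 3.55-fold. The share of cells with a UMI was 4.12% in control and 9.59% in mutant, and after thinning it was 2.05% (1.61 to 2.56) and 6.39% (5.49 to 7.38). The 10 cells with the most UMIs held 25.7% and 16.9% of all UMIs.

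Outside the mesenchyme Cyp26a1 was nearly absent. Neuron-like cells held 1 and 5 UMIs, glia-like cells 1 and 5, and brain progenitor-like cells 5 and 0. After thinning, 0 of 1238 mutant progenitor-like cells had a UMI, which allows a share of up to 0.242%. The highest thinned share in a neural or glial class, 0.995% of mutant glia-like cells, stands as the background for the mesenchymal shares.

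Cluster 2 carried most of it, with 228 of 315 control UMIs (72.4%) and 583 of 817 mutant UMIs (71.4%). Its level was 24.1 CPM in control and 61.3 in mutant, a log2 ratio of 1.35 (1.12 to 1.57). The maxillary-like cluster went from 61 to 175 UMIs, or 3.59 to 13.0 CPM, a log2 ratio of 1.86 (1.43 to 2.31). In the maxillary-like cluster 10 cells held 52.5% of the control UMIs and 61.1% of the mutant ones.

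Outside these 2 clusters Cyp26a1 UMIs were few. The counts were 14 and 25 in the frontonasal-like cluster, a log2 ratio of 1.80 (0.80 to 2.85), and 9 and 28 in cluster 4, a log2 ratio of 1.56 (0.44 to 2.83). The mandibular-like cluster held 3 and 6, too few for a ratio. The level of cluster 2 was 88.2-fold (29.8 to 431) that of the mandibular-like cluster in the control and 66.6-fold (30.4 to 182) in the mutant.

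In the finer division Cyp26a1 was highest in the group led by Shisa3, Ebf2 and Hmx1, at 61.4 CPM in control and 112 in mutant, a log2 ratio of 0.87 (0.53 to 1.21). It was also higher in the Emx2- and Hoxa2-led group, from 128 UMIs to 274 (16.2 to 40.0 CPM, log2 ratio 1.31, 1.00 to 1.62). Fine groups hold different numbers of cells in the 2 libraries. With the cluster shares of the control the mesenchymal log2 ratio was 1.49.

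Cyp26b1 (chr6:84571414-84593908), the second breakdown enzyme, was at 11.9 CPM in control and 11.4 in mutant mesenchyme, from 682 and 475 UMIs, a log2 ratio of -0.07 (-0.24 to 0.10). It was highest in cluster 2, at 16.5 and 17.9 CPM, and lowest in cluster 4, at 1.73 and 3.29, a fold of 9.52 (4.51 to 24.1) in the control and 5.44 (3.15 to 10.2) in the mutant. The frontonasal-like and maxillary-like clusters, at 13.1 and 13.0 CPM in the control and 10.3 and 10.5 in the mutant, had overlapping intervals. In the finer frontonasal-like group led by Tfap2b it was lower in the mutant, 12.6 against 5.42 CPM (log2 ratio -1.22, -1.90 to -0.59), and in the Pax7-led group it was higher, 8.77 against 16.8 from 44 and 33 UMIs (0.93, 0.24 to 1.62).

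Both breakdown enzymes had their highest mesenchymal level in cluster 2, for Cyp26b1 by a small margin (16.5 CPM against 13.1 in the control frontonasal-like cluster). After thinning, 53 control cells of cluster 2 had a Cyp26a1 UMI, 36 had a Cyp26b1 UMI and 1 had both. In the mutant the counts were 127, 44 and 0. In the finer division Cyp26b1 was at 19.0 and 23.1 CPM in the Emx2- and Hoxa2-led group and at 3.69 and 4.42 in the Shisa3- and Ebf2-led group, where Cyp26a1 was highest. The Gata3- and Foxl2-led frontonasal-like group was nearly as high as the former in the control, at 18.7 CPM, and at 15.15 in the mutant. Aldh1a2 and Cyp26a1 UMIs shared 3 of 3666 control and 5 of 2678 mutant mesenchyme-like cells, of 140 and 96 with Aldh1a2. With each gene detected in so few cells, these counts do not show whether the genes were apart.

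**Figure D4:**
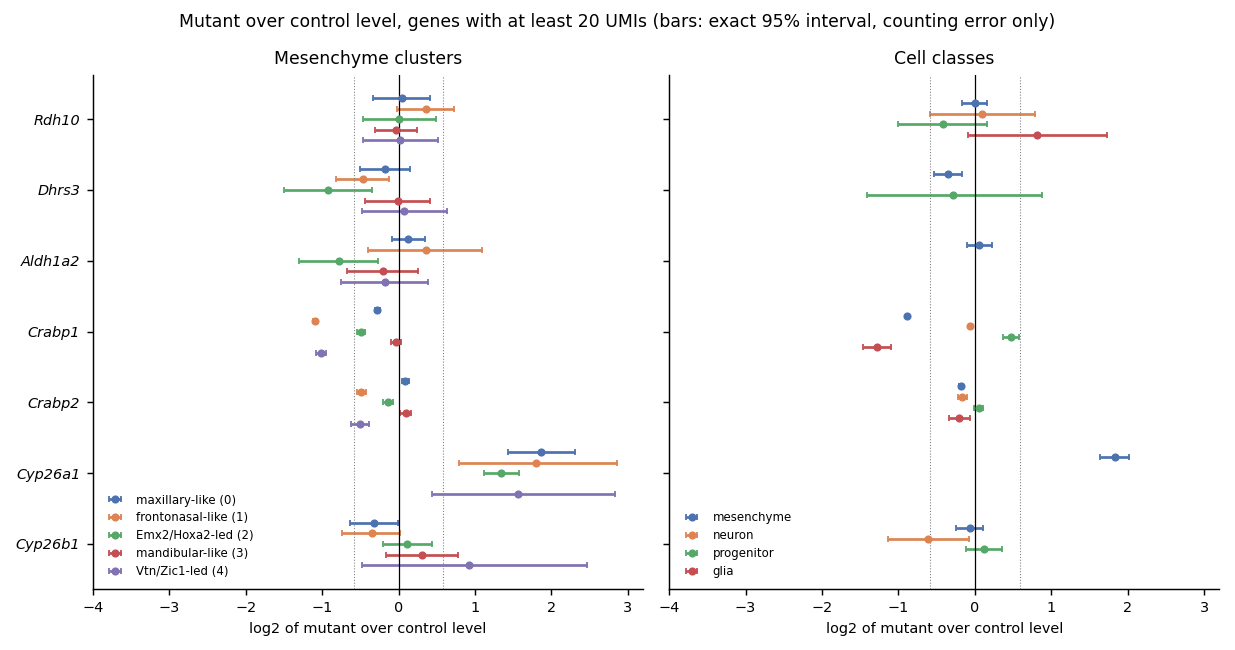
Log2 of the mutant over the control level for the 7 genes, in the 5 mesenchyme clusters (left) and 4 classes (right), with exact 95% intervals. Pairs with fewer than 20 UMIs are not drawn, the black line marks 0 and the dotted lines 1.5-fold. The 4 Cyp26a1 values drawn for mesenchyme clusters lay to the right of 0, from 1.35 to 1.86, and the Crabp1 values ranged from -1.09 to -0.04 over the mesenchyme clusters.

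Crabp1, Crabp2 and Cyp26b1 had at least 100 UMIs in both neural classes, as did Aldh1b1 in neuron-like cells and Rdh10 in brain progenitor-like cells. In neuron-like cells Aldh1b1 was higher and Cyp26b1 lower by more than 1.5-fold, against 1.74% higher and 0.974% lower among all 9961 genes tested there (2.71% in either direction). Without the neuron-like cell of each library with the most Cyp26b1 UMIs, Cyp26b1 was at 5.03 and 4.84 CPM (log2 ratio -0.06, -0.70 to 0.60) and the call ended. None of the 4 members tested in brain progenitor-like cells passed 1.5-fold in these 2 libraries, against 0.957% lower and 0.882% higher among 10549 genes (1.84% in either direction). In glia-like cells 1 of 2 was lower and 0 higher, against 4.78% and 6.26% of 8071 genes (11.0%).

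Crabp1 was higher in neuron-like than in brain progenitor-like cells, though not in every neuronal cluster. Neuron-like cells held 6105.1 CPM in control and 5854.5 in mutant, a log2 ratio of -0.06 (-0.08 to -0.04). Brain progenitor-like cells held 122 and 168, a log2 ratio of 0.47 (0.37 to 0.57). The neuronal level was 50.2-fold (47.4 to 53.2) the progenitor level in the control and 34.7-fold (33.4 to 36.1) in the mutant, and 3.81-fold (3.76 to 3.85) and 6.77-fold (6.68 to 6.85) the mesenchymal level.

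Progenitor Crabp1 rested on few cells. The 10 cells with the most UMIs held 38.8% of the control and 42.3% of the mutant UMIs. The share of cells with a UMI after thinning was 24.5% (21.5 to 27.7) and 27.0% (24.5 to 29.5). Without called doublets the log2 ratio was 0.34. The 6 neuronal markers summed to 369 and 435 CPM in these cells and moved the same way, the 4 blood markers summed to 286 and 0.842, and the part of neither was tested.

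High Crabp1 was found in 3 neural clusters. Neural cluster 2, led by Sncg and Isl1, was at 6731.3 CPM in control and 5259.7 in mutant (log2 ratio -0.36, -0.39 to -0.33). Neural cluster 3, led by Cck and Tfap2d, was at 6976.9 and 9029.7 (0.37, 0.34 to 0.40). Neural cluster 4, which was rhombic lip and dorsal neuron-like, was at 6209.1 and 6241.3 (0.01, -0.03 to 0.04).

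Within these clusters Crabp1 was not uniform. In neural cluster 2, 30.7% of the thinned control cells and 23.1% of the mutant cells had more than 20 Crabp1 UMIs, while 27.3% and 41.0% had none. In neural cluster 3 the shares above 20 were 28.8% and 38.8%, and those at 0 were 34.6% and 28.7%. In neural cluster 4 they were 42.6% and 37.0% above 20, and 18.7% and 23.7% at 0.

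The others of neural clusters 0 to 7 were low. The inhibitory neuron-like cluster 7 was at 240 and 87.6 CPM, from 138 and 129 UMIs, and neural cluster 6, led by Sim1 and Nr4a2, was at 434 and 272. Both rested on few cells. Without the Crabp1-richest cell of each library cluster 7 was at 90.4 and 49.0 CPM, while cluster 6 was at 56.3 and 137 and so changed direction. Without the richest 10 the log2 ratio of cluster 7 was 1.499 (0.01 to 3.45), from 4 and 34 UMIs. Among progenitors, the Msx3- and Olig3-led cluster 5 was at 337 and 491, the Wfdc1- and Rspo1-led cluster 0 at 86.8 and 103, and the isthmic-like cluster 1 at 73.5 and 136. In cluster 1 the log2 ratio was 0.89 (0.68 to 1.10), but 10 cells held 63.4% of the control and 73.9% of the mutant UMIs, and the share of thinned cells with a UMI was 13.9% and 14.2%. Without those 10 cells the log2 ratio was 0.41 (0.04 to 0.78). Low Crabp1 did not hold for all cells with inhibitory neuron markers. In a finer division of the neural cells, a group led by Otp and Tfap2a had raised Gad1, Gad2, Slc32a1 and Lhx1. It held 90 control and 126 mutant cells, with Crabp1 at 4595.6 and 4213.8 CPM. Neural cluster 8, left out of the classes with 46.25% and 56.73% of cells called doublets, was at 2535.7 and 2454.2 CPM.

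**Figure D5:**
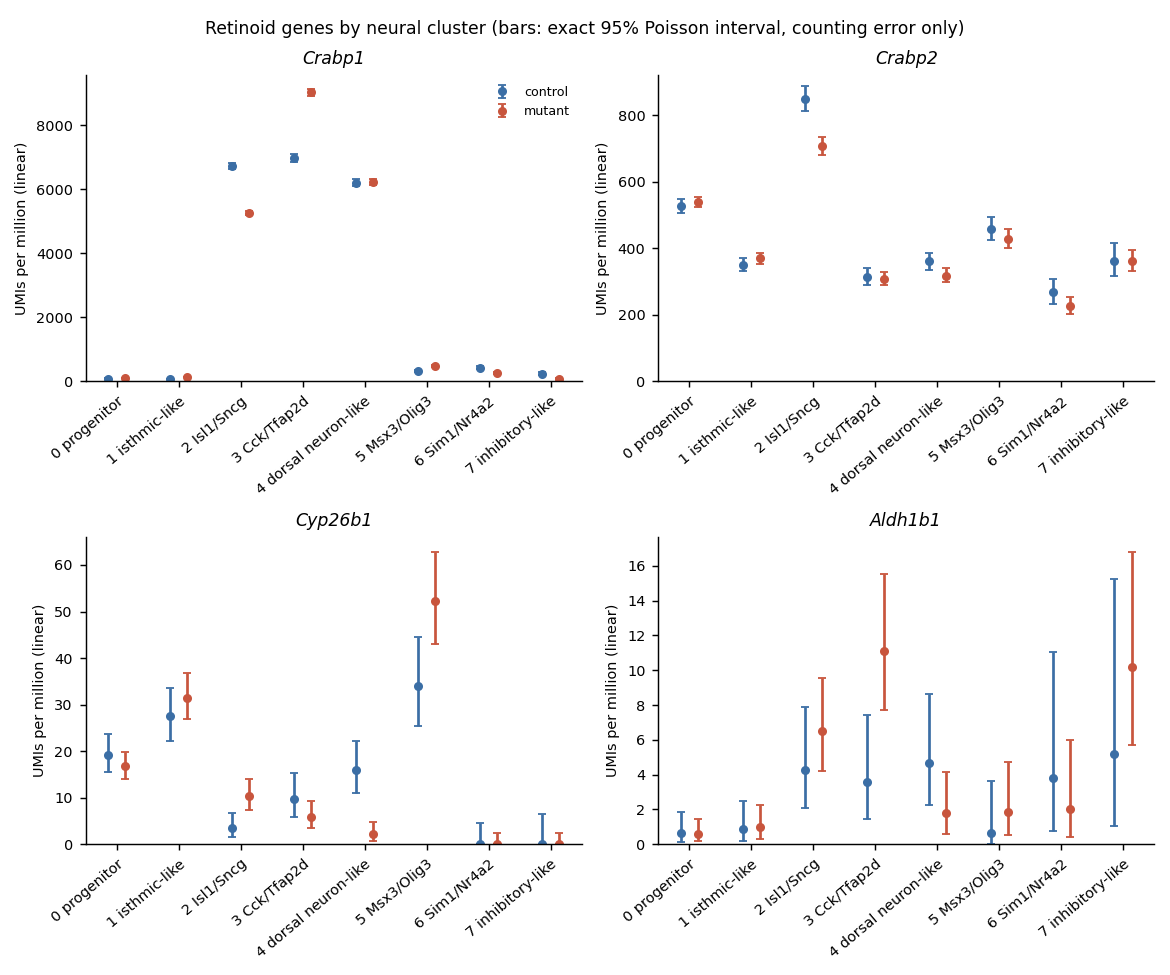
Levels of Crabp1, Crabp2, Cyp26b1 and Aldh1b1 (CPM, linear axes from 0) in neural clusters 0 to 7 of the control (blue) and mutant (red) libraries, with exact 95% Poisson intervals. Crabp1 lay between 5259.7 and 9029.7 CPM in clusters 2, 3 and 4 and at 491 or lower in the others, and Cyp26b1 was highest in cluster 5.

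Crabp2 was present at similar levels in neurons and progenitors. Neuron-like cells held 511 and 456 CPM (log2 ratio -0.16, -0.23 to -0.10) and brain progenitor-like cells 452 and 467 (0.05, -0.01 to 0.10). The neuronal level was 1.13-fold (1.08 to 1.18) the progenitor one in the control and 0.975-fold (0.941 to 1.01) in the mutant. Neural cluster 2 was highest, at 850 and 708, and neural cluster 6 lowest, at 269 and 227. Glia-like cells held 237 and 205 CPM.

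Cyp26b1 was the breakdown enzyme of the neural tube cells. Brain progenitor-like cells held 238 control and 411 mutant UMIs, 24.5 and 26.6 CPM, a log2 ratio of 0.12 (-0.12 to 0.35), and the control level was 2.06-fold (1.77 to 2.39) that of mesenchyme-like cells. The Msx3- and Olig3-led cluster 5 was highest, at 33.9 and 52.2 CPM, a log2 ratio of 0.62 (0.14 to 1.13). There the share of thinned cells with a UMI was 7.69% (3.75 to 13.7) and 19.3% (13.8 to 25.9). Neural clusters 6 and 7 held no Cyp26b1 UMI in either library, which allows up to 3.79 CPM in control and 2.05 in mutant cluster 6, and 5.21 and 2.04 in cluster 7.

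In neuron-like cells Cyp26b1 was at 8.73 and 5.73 CPM, from 61 and 64 UMIs, a log2 ratio of -0.61 (-1.14 to -0.08). A single control cell of neural cluster 4 held 26 of the 34 UMIs of that cluster, against 6 in the mutant. In neural cluster 2 the order was the other way, with 8 control and 40 mutant UMIs. In all neuron-like cells 10 cells held 80.3% of the control and 65.6% of the mutant UMIs, and without them the log2 ratio was 0.18 (-0.89 to 1.33).

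Glia-like cells had lower Crabp1 in the mutant, 232 against 95.8 CPM, a log2 ratio of -1.28 (-1.46 to -1.10). The 10 cells with the most UMIs held 67.3% and 69.3% of these UMIs. The 6 neuronal markers summed to 2130.6 CPM in control and 298 in mutant glia-like cells, and 19.9% of control and 1.98% of mutant cells had more than 2 UMIs of the neuronal gene Stmn2. In the cells with no more than 2 Stmn2 UMIs, Crabp1 was at 177 and 90.8 (log2 ratio -0.96, -1.16 to -0.76). In the same cells Aldh1b1 was at 8.06 and 1.89 (-2.10, -3.65 to -0.82), and Aldh1a3 at 7.06 and 1.89 (-1.90, -3.47 to -0.60).

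The receptors of retinoic acid and the other retinoid genes were read as whole pathway lists, which were drawn up with earlier results of these data known. Of the 6 receptors, 5 were tested in mesenchyme-like cells and none passed 1.5-fold there in these 2 libraries. Among all genes tested there 3.72% did, so a list this short says little about the receptors as a set. Rarb, itself a retinoic acid-responsive receptor gene, was at 35.2 and 26.4 CPM (log2 ratio -0.41, -0.52 to -0.31). Rarg was at 58.5 and 50.5 (-0.21, -0.29 to -0.14), and Rara, Rxra and Rxrb had intervals that held 0. By cluster, Rarb was lowest in cluster 2, at 8.78 and 5.36 (-0.71, -1.24 to -0.19), where alone among the 5 clusters it passed 1.5-fold. In glia-like cells Rxra was higher in the mutant, 10.6 against 16.4 CPM (0.62, 0.05 to 1.196).

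Among the genes of retinol uptake and storage, 3 of 4 were tested in mesenchyme-like cells and none passed 1.5-fold there in these 2 libraries. The share over all genes tested there was 3.72%, and this list is short as well. Stra6, the retinol transporter, was at 24.6 and 19.5 CPM (log2 ratio -0.33, -0.46 to -0.21). Rbp4, the plasma retinol carrier, was at 2.88 and 5.21 in the maxillary-like cluster (0.85, 0.31 to 1.41). In cluster 2 Stra6 was at 20.5 and 8.83 (-1.22, -1.60 to -0.84), in cluster 4 at 39.9 and 22.6 (-0.82, -1.203 to -0.45), and in the mandibular-like cluster at 14.9 and 20.3 (0.45, 0.10 to 0.79).

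Of 14 other enzymes, 7 were tested in mesenchyme-like cells. Cyp1b1, a P450 that can oxidise retinoids, was the 1 past 1.5-fold, with 40 control and 74 mutant UMIs (log2 ratio 1.34, 0.77 to 1.93), of which 13 and 45 lay in cluster 4. Over all genes tested there, 2.65% were higher and 1.07% lower by that rule. Fabp5, a fatty acid-binding protein that also carries retinoic acid, was at 763 and 645 CPM in mesenchyme-like cells (-0.24, -0.27 to -0.22) and at 1611.7 and 908 in glia-like cells (-0.83, -0.89 to -0.77).

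Of 11 genes known to respond to retinoic acid, Rarb among them, 6 were tested in mesenchyme-like cells, with a median log2 ratio of -0.17 against 0.02 for all genes. Of these 6, 1 that is not named here was lower by more than 1.5-fold and 0 were higher. Among all genes tested there, 1.07% were lower and 2.65% higher (3.72% in either direction). Meis2 was at 240 and 296 CPM (log2 ratio 0.30, 0.27 to 0.34), Meis1 at 55.5 and 68.7 (0.31, 0.24 to 0.38) and Tshz1 at 54.9 and 42.8 (-0.36, -0.44 to -0.27). Cyp26a1 and Rarb, both genes of this kind, thus differed in opposite directions in the mesenchyme.

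Some genes of this list were past 1.5-fold in the other classes too. In neuron-like cells Hoxb5, a gene of the caudal hindbrain and spinal cord, was at 88.3 and 25.1 CPM (log2 ratio -1.82, -2.03 to -1.61). Hoxb5 was also lower in the mutant in the other classes, from few UMIs. The counts were 38 and 17 in brain progenitor-like cells, 42 and 0 in glia-like cells and 9 and 2 in mesenchyme-like cells. In glia-like cells Nrip1, a nuclear receptor corepressor, was at 186 and 313 (0.75, 0.62 to 0.88).

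For 7 members with at least 1000 UMIs the genes with the most similar levels were found over 12 clusters of both libraries (24 points, which share their library and depth). Dhrs3 was most like Prrx2 (Pearson r 0.97), Alx4 (0.95) and Idh2 (0.95), and Aldh1a2 was most like Osr1 (0.95), Eno3 (0.93) and Foxf2 (0.93). Rdh10 was most like Igf2r, Igf2 and Nrk (0.90, 0.90 and 0.89), and Crabp1 was most like Tle1 (0.91), with Rbfox2 at 0.89. Cyp26b1 was nearest to Hnrnph2, Taf12 and Wdr73 (0.85, 0.85 and 0.84), Cyp26a1 to Smoc2, D030045P18Rik and Prr16 (0.83, 0.82 and 0.78), and Crabp2 to Cox5a, Fam169a and Pomp (0.82, 0.78 and 0.77). Among the members themselves Aldh1a2 and Dhrs3 were most alike (0.89), followed by Rdh10 and Dhrs3 (0.82). The 12 clusters span mesenchyme, neural and glia-like cells, so r takes in differences between classes as well as between regions. Within the control mesenchyme Aldh1a2 was lowest in the frontonasal-like cluster, at 2.60 CPM, where Dhrs3 was highest, at 16.5. Crabp1 and Crabp2 had an r of 0.23.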

How the data were processed

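Sorted CNCCs of 1 control and 1 mutant library, each from 2 pooled E11.5 embryos, were profiled with 10x 3′ v3.1 chemistry. The authors deposited raw UMI counts for each barcode, made with Cell Ranger (6.0.0 in the file header) on mm10 and not normalized; per the submitters' notes Seurat 4.3.0 was used afterwards. Barcode and gene lists were deposited with the counts. Whether counting used strand is not given in the sources used here.

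Kept barcodes had 200 to 7500 genes and no more than 10% of UMIs from mitochondrial genes. Libraries were integrated with Seurat 5.3.0 in R 4.3.3 (2000 genes, 30 dimensions) and clustered at resolution 0.05, then mesenchyme and neural cells at 0.2. Clusters received a -like name when at least 3 markers of a list were detected in 5% of cells and were 1.5-fold higher, with 1 among the 10 leading genes and no other list holding more of those 10 (which left mesenchyme cluster 4 and neural cluster 2 unnamed); this rule was settled after the clusters were seen. A mesenchyme cluster led by neural genes (43 control and 83 mutant cells, mostly called doublets) and 3 neural clusters were left out of the classes. Scrublet called 1.65% of control and 3.06% of mutant cells doublets, which were kept. The members and lists were chosen with earlier results of these data known.

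UMIs were summed per cluster and library. A sum was given as CPM with an exact Poisson interval, a share of cells with an exact Clopper-Pearson interval, and a log2 ratio with an exact conditional binomial interval (scipy 1.17.1), all at the 95% level. Ratios needed 20 UMIs and calls 100 UMIs and 1.5-fold; a count of 0 was set to 3 counts. Shares between depths used cells thinned to 5000 UMIs (50 control and 53 mutant mesenchyme-like cells were too shallow). The ratio script was tested on simulated data. By rule the text names all members, the 6 receptors, other retinoid genes with 100 UMIs and 1.5-fold apart in a class, the targeted genes and the 3 genes most like each member; Stra6, Rbp4, Meis1, Meis2 and Tshz1 were named after their values were seen, and a few genes that the rule covers are not reported here. Alternatives used TMM (edgeR 4.0.16), equal weight per cell, thinning, doublet removal, a stricter barcode filter, clustering without integration and other cluster shares. Promoters come from RefSeq (GRCm38.p6; 6 of 9 members), positions from GENCODE M21.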

Additional observations from a re-analysis of the deposited data

Results flagged for a closer look

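Crabp1 differed in opposite directions between classes. It was higher in mutant than control brain progenitor-like cells (log2 ratio 0.47) and lower in glia-like cells (-1.28). With 1 library each, the difference between the classes was not tested. Aldh1b1 was higher in mutant neuron-like cells (0.72) and lower in mutant glia-like cells (-2.18), and this difference was not tested either. Crabp2 was slightly higher in the mandibular-like cluster 3 of the mesenchyme (0.10) and lower in cluster 4 (-0.50), again not tested.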

How the results depend on the processing

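No paired analysis was possible because each genotype had 1 library, and for the same reason no replicate could be left out. The Crabp1 log2 ratio in mesenchyme-like cells, -0.89, moved outside its counting interval under TMM scaling (-0.92), equal weight per cell (-0.86), thinning (-0.86), a stricter barcode filter of at least 3000 UMIs and at most 5% mitochondrial UMIs (-0.91), the cluster shares of the control (-0.78) and all kept cells (-0.27). It stayed negative in all 11 alternatives. Of the 7 members tested in the mesenchyme, the number lower by 1.5-fold went from 1 to 0 over all kept cells and with a 2-fold rule. Over all kept cells Aldh1a3, which is not among the 7, was lower (log2 ratio -0.77, -1.33 to -0.23). The number higher stayed at 1 in the 10 alternatives run. Cyp26a1 ranged from 1.46 over all kept cells to 2.02 after thinning. The share of genes 1.5-fold apart, 3.72%, was 7.32% with at least 30 UMIs, 23.8% with no filter on low counts and 1.06% with a 2-fold rule. Keeping the doublet-rich mesenchyme cluster and leaving out the cell, or the 10 cells, of each library with the most UMIs of a gene were added after seeing the data. Of 190 alternative values, 140 stayed within the counting interval or within 1.5 times, 46 moved and 4 changed sign from past 1.5-fold. These 4 were Crabp1 in neural cluster 6 without 1 cell (1.29) and without 10 (0.29), Crabp1 in neural cluster 7 without 10 (1.499) and Cyp26b1 in neuron-like cells without 10 (0.18). Clustering without integration merged neurons and progenitors and gave no value for them. Aldh1a3 and Aldh1b1 in the mesenchyme, with 81 and 91 UMIs in all, had too few UMIs for a call. Their log2 ratios were -0.16 (-0.85 to 0.51) and -0.09 (-0.74 to 0.54). For counting error alone, both intervals reached past 1.5-fold lower but not to 1.5-fold higher. Neither interval held the Crabp1 ratio of -0.89.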
